A study of Mus musculus with 7 samples.

Results

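The *Fezf2 Krt5* cells are mouse thymic epithelial cells that were chosen by their own measured levels of 14 genes in droplet-based scRNA-seq. A cell was a member if it had no unique molecular identifier (UMI, a tag that marks a single captured RNA molecule) of *Ptprc*, which encodes the leukocyte antigen CD45, if *Fezf2* and *Krt5* were each above 1.5, if *Aire* and *Krt10* were at most 1.5 and *Ccl21a* at most 4, and if fewer than 3 of 8 cell cycle genes (*Top2a*, *Birc5*, *Cdk1*, *Ube2c*, *Cenpf*, *Nusap1*, *Ccna2* and *Mki67*) were detected. These limits are on a natural log scale, ln(1 + UMIs scaled to 10000 per cell). The rule selected 127 of 8453 cells, and each of the 7 libraries contributed members. Each library was 1 pool of 3 thymi from female C57BL/6 mice, from which EpCAM-positive, CD45-negative cells had been sorted after enrichment on Percoll. The Aire trace library came from mice aged 6 weeks that carried *Aire-CreERT2* and *R26-CAG-Stopfl-zsGreen*, so that Cre made under *Aire* control marks a cell and its progeny with the fluorescent protein ZsGreen after tamoxifen, which was given as 2 mg doses on alternate days over 10 days. The other 6 libraries came from mice without these alleles that had received 3 injections of 100 µg antibody in 1 week. Isotype control antibody (clone 2A3) was followed by analysis at week 2 (mice aged 4 weeks) or week 10 (12 weeks), and anti-RANKL (clone IK22/5), which blocks the ligand of the receptor RANK, by analysis at week 2 (4 weeks of age), week 4 (6 weeks), week 6 (8 weeks) or week 10 (12 weeks).

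Medullary thymic epithelial cells (mTECs) present proteins of other tissues to developing T cells, so that self-reactive T cells are removed or diverted. The transcriptional regulator Aire and the zinc finger factor Fezf2 each control separate sets of these tissue-specific antigens (TSAs), keratin 5 marks the basal type of mTEC, and *Ccl21a* encodes a chemokine that draws positively selected thymocytes from the cortex into the medulla. RANK, the receptor of RANKL, signals through NF-kB in mTECs and is needed for the development of Aire-positive cells.

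The promoters of 2 genes that the results turn on are given as 120 bases upstream of the RefSeq start, 5′ to 3′ on the strand of the gene. *Krt5* helped to choose the cells, and *Wfdc18* encodes a secreted protein of the WAP four-disulfide core family. Among called genes (defined below) with 1 sign in every library, *Wfdc18* had the largest positive difference from Aire-high cells. Capitals mark matches to the motifs searched on both strands, which were the TATA box letters ATAAAA, the GC box letters GGGCGG and, as a form of the E-box bound by basic helix-loop-helix factors, the letters CAGCTG. The windows are chr15:101712906-101713025 (minus strand) and chr11:83708884-83709003 (plus strand) of GRCm38.p6.
Krt5: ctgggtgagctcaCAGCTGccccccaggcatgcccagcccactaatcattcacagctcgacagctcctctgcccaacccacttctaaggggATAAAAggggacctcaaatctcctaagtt
Wfdc18: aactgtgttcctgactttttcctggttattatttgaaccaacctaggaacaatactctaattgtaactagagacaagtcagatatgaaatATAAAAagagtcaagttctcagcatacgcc
Both windows held the TATA box letters once. The *Krt5* window also held the E-box letters once, and neither held the GC box letters. Of 32851 mouse promoters, in 250 bases upstream of the start, 17.0% held the TATA box letters, 32.7% the GC box letters and 13.0% the E-box letters. A match is only a match of letters in this window.

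Library depth ranged from 3857876 to 22197691 UMIs in total and from 4299.5 to 16809 UMIs per cell (library medians), with the lowest medians in the week 4 and week 6 libraries. The median member held 10040 UMIs, and medians by library ran from 4002.5 (week 6) to 19784 (isotype control, week 2). Of the barcodes, 50 occurred in more than 1 library, but 0 of the members carried one of them. No doublet caller was run here, and the sources used here name none. *Ptprc* UMIs were found in 233 cells, and these cells also held UMIs of *Fezf2* (37.3%), *Krt5* (48.1%), *Aire* (35.2%) and *Ccl21a* (93.6%), at a median of 10161 UMIs per cell. A single UMI of any of these 4 genes therefore did not distinguish a cell from this background.

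Levels of the selecting genes are a description of the choice. *Fezf2* ranged from 1.51 to 3.30 in members (median 1.93, median of 8 UMIs) and *Krt5* from its limit up to 4.31 (median 2.37, median of 10 UMIs). *Fezf2* rested on 2 UMIs or fewer in 16 members, and *Krt5* in 11. UMIs of the genes that define the neighbouring classes occurred in members at shares to be read beside those of Ptprc-positive cells. *Aire* UMIs were present in 66 of 127 members (52.0%), with a highest level of 1.47, and *Ccl21a* UMIs in 123 (96.9%), with a median of 2.67 and a highest level of 3.95. *Krt10*, a keratin of cornifying epithelia, was detected in 38 members. The limits cut through continuous ranges. Within 0.25 of the limit lay 34 members for *Fezf2*, beside 36 cells that failed on this gene alone, and for *Krt5* the counts were 21 and 28. For *Aire* they were 12 and 11, and for *Ccl21a* 10 and 19. Over any distance, 648 cells failed only on *Fezf2*, 634 only on *Ccl21a*, 456 only on *Krt5* and 43 only on *Aire*.

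Members with and without an *Aire* UMI differed in depth, with medians of 16775 UMIs (66 cells) and 7315 UMIs (61 cells). Both kinds occurred in all 7 libraries. Mean *Ccl21a* was alike on the natural log scale, at 2.53 and 2.52. The homeobox gene *Cdx1* averaged 1.06 in members with an *Aire* UMI and 0.475 in the others, and *Cd74*, the invariant chain of MHC class II, 5.13 and 4.60. *Ly6d* went the other way, at 0.771 and 1.49. The part of depth in these differences was not tested.

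The share of members lay between 0.910% and 2.04% in the 7 libraries. Members made up 1.55% of the 8220 cells without a *Ptprc* UMI (exact Clopper-Pearson 95% interval 1.29 to 1.84%, which like every interval here covers counting error only). The isotype controls held 2.04% (1.30 to 3.04%, 23 cells) at week 2 and 1.60% (0.982 to 2.47%, 20 cells) at week 10, or 1.82% ± 0.306 (SD, n = 2). After anti-RANKL the share was 1.60% (0.969 to 2.49%, 19 cells) at week 2, 1.17% (0.684 to 1.87%, 17 cells) at week 4, 1.95% (1.07 to 3.25%, 14 cells) at week 6 and 1.88% (1.18 to 2.83%, 22 cells) at week 10. The interval at each of these weeks overlapped those of both controls. The Aire trace library held 0.910% (0.471 to 1.59%, 12 cells), the lowest share. No test was made of these shares.

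The 2 comparison classes, drawn from cells without a *Ptprc* UMI under the same *Krt10* and cell cycle limits, varied more in size. Aire-high cells (*Aire* above 1.5, *Ccl21a* at most 4; 1402 cells) made up 31.1% and 35.7% in the controls and 4.73% and 1.38% at weeks 2 and 4 after anti-RANKL. At weeks 6 and 10 they made up 11.7% and 31.1%. Ccl21a-high cells (*Ccl21a* above 4, *Aire* at most 1.5; 3241 cells) made up 12.8% and 14.1% in the controls and 56.4% and 62.0% at weeks 2 and 4. At week 4 the library held 17 members beside 20 Aire-high cells. These are shares of sorted cells, so that a share falls when another class grows.

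**Figure D1:**
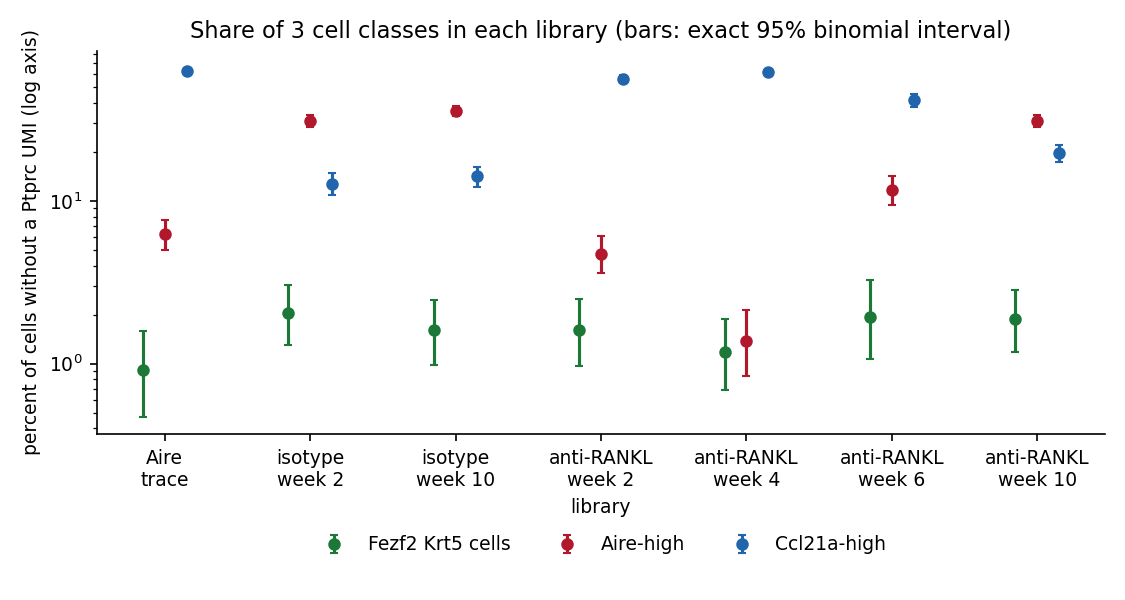
Share of cells without a *Ptprc* UMI (percent, logarithmic vertical axis) that were *Fezf2 Krt5* cells, Aire-high or Ccl21a-high in each of the 7 libraries (horizontal axis), with exact 95% intervals as bars. The member share stayed between 0.910% and 2.04% while the Aire-high share ranged from 1.38% to 35.7%.

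For the comparisons across genes, the level of a gene in a class was its mean UMIs per 10000 over the cells of that class in a library, and the 7 libraries served as blocks in limma on log2(level + 0.1). A difference below is on that log2 scale, which understates changes of low genes, and it was called at a Benjamini-Hochberg adjusted p below 0.05 and a size of at least 1. Both comparisons use the same member cells. Classes were cut on *Aire* and *Ccl21a*, so genes that vary together with these also differ through the cut, and the selecting genes and the near-identical copies of *Ccl21a* were left out of all tests. Median depth was 10040 UMIs in members, 11606 in Aire-high cells and 7039 in Ccl21a-high cells. Libraries gave between 12 and 23 members each, so a member level is noisier than that of a larger class.

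Against Aire-high cells, *Fezf2 Krt5* cells had more RNA of *Wfdc18*, of several genes of the basal and Notch lists and of *Fos*, *Jun* and *Atf3*. They had less of most tested genes in the lists of Aire-dependent TSAs, chemokines and the Aire stage. Of 5686 genes tested, 146 (2.57%) were higher in members and 374 (6.58%) lower, so that 28.1% of the called genes were higher. With as many comparison cells as members in each library, the counts were 186 and 221, or 45.7% higher. The median difference over all tested genes was 0.06.

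*Wfdc18* ranged from 31.5 (week 6) to 117 UMIs per 10000 (isotype control, week 2) in members, with a median of 48.7 over the 7 libraries, and from 4.72 to 20.7 in Aire-high cells. The classes did not overlap. The means were 67.8 ± 32.4 and 8.88 ± 5.55 (SD, n = 7), a log2 difference of 2.95 ± 0.22 (SE, limma adjusted p = 9.1e-06). Ccl21a-high cells lay lower than members in each library as well, at 22.2 to 53.8, but the difference of 0.90 (limma adjusted p = 0.0014) was smaller than 1. It passed 1 with equal cell numbers (1.03) and without the isotype control at week 10 (1.02). In Ptprc-positive cells *Wfdc18* averaged 16.6. Single members differed widely in this gene. In the 16 and 21 marker-rich members described below its means were 74.2 and 50.8, and its medians 6.29 and 6.56.

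*Matn1*, which encodes the cartilage protein matrilin-1, was second in size among called genes with 1 sign in every library. It ranged from 0.361 (week 6) to 1.94 in members and from 0.0583 to 0.440 in Aire-high cells, and was higher in members in 7 of 7 libraries (2.42 ± 0.25, SE, limma adjusted p = 5.2e-05). It was detected in 27.6% of members. *Mpzl2*, an adhesion molecule of epithelia, was next in that ranking (0.684 against 0.0573, log2 difference 2.27). These ranges overlapped for *Matn1*, through the week 6 members, and not for *Mpzl2*. The 12 genes with the largest positive difference of 1 sign in every library included *Wfdc18*, *Matn1*, *Mpzl2*, *Hes1*, *Zfp36l1*, *Perp*, *Slc46a2*, *Ifi27l2a*, *Trim29*, *Fstl1* and *Ifitm3*. *Fstl1* was the 1 gene among them that lost its call under an alternative, at a pseudocount of 0.5 (0.87) and with cells thinned to 4000 UMIs (1.21, adjusted p = 0.052).

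Of the 13 tested genes of basal keratins and the Ccl21a branch, 7 were higher and 0 lower, with a median difference of 1.08. *Krt17*, a keratin of basal and stressed epithelia, ranged from 22.6 (week 6) to 80.7 with a median of 61.6 in members and from 14.5 to 25.2 in Aire-high cells. Only the week 6 members fell inside the Aire-high range (1.55 ± 0.17, SE, limma adjusted p = 9.0e-05). *Krt14* averaged 7.28 against 3.25 (1.08), a call lost without the isotype control at week 10 (0.85). Calls of *Krt17* and *Igfbp5* held without each library in turn, and those of *Krt14*, *Igfbp4*, *Lifr* and *Apoe* did not. *Igfbp5* lost its call at a pseudocount of 0.5 (0.97), with thinned cells (0.79, limma adjusted p = 0.42) and without the cTEC-marker-rich members described below (1.09, limma adjusted p = 0.13).

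Genes of the Notch pathway, which sets the fate of neighbouring cells, were higher in 5 of 6 tested, with a median of 1.32. *Hes1*, a Notch target that represses differentiation genes, ranged from 0.439 (week 6) to 1.85 in members, with a median of 1.40, and from 0.0925 to 0.605 in Aire-high cells (2.07 ± 0.29, SE, limma adjusted p = 0.00049). It was higher in members in each library, although the week 6 members lay inside the Aire-high range. The ligand gene *Jag1* and the receptor gene *Notch2* were also higher and their calls held without each library in turn, unlike those of *Notch1* and *Nrarp*. At a pseudocount of 0.5 *Jag1* and *Notch2* lost their calls, at 0.64 and 0.81. *Jag1* also lost its call with cells thinned to 4000 UMIs (1.14, limma adjusted p = 0.091). Of the 5 calls, only that of *Hes1* held under every alternative.

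Of 17 transcription factor genes of thymic epithelium, 4 were higher and 1 lower. *Sox4*, which acts in progenitors of many lineages, ranged from 4.06 (week 4) to 11.2 in members and from 1.25 to 4.17 in Aire-high cells (1.74 ± 0.27, SE, limma adjusted p = 0.00073). *Hes6* differed by 1.19. *Cdx1*, known from the intestine, was the gene on the lower side (-1.11), and its call was lost without the week 10 anti-RANKL library (-0.99). *Krt7*, a keratin of simple ducts, was higher at 3.34 to 7.36 against 1.32 to 2.41, with no overlap (1.44). Immediate early genes *Fos* (1.14), *Jun* and *Atf3* were higher among 12 immediate early and heat shock genes, with a median of 0.66. *Jun* lost its call with cells thinned to 4000 UMIs (0.95). These 3 are also known to respond to tissue dissociation, and the part of dissociation was not tested.

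On the lower side stood antigen genes known to require Aire, with 6 of 7 tested lower, 0 higher and a median of -2.16. *Csn2*, the milk protein beta-casein, ranged from 0.342 to 4.03 with a median of 0.699 in members and from 4.22 to 17.7 in Aire-high cells. Members with the highest level, those of the isotype control at week 2, were still below the lowest Aire-high level, of week 4 (-3.45 ± 0.25, SE, limma adjusted p = 9.1e-06). Calls of *Csn2*, *S100a8*, *S100a9* and *Apoa1* held without each library in turn, those of *Ins2* and *Tff3* did not, and *S100a9* and *Apoa1* lost theirs with equal cell numbers. *S100a8*, a calcium-binding protein of neutrophils and keratinocytes, differed by -3.87 but ranged from 0 to 8.79 in members, and its call was lost in the 3 libraries with at least 20 cells of each class (-3.31, adjusted p = 0.055). The 12 leading genes with lower levels were *S100a8*, *Gm29461*, *Cck*, *Csn2*, *Pla2g1b*, *Crhbp*, *Rarres1*, *Calca*, *Lsp1*, *Gm43569*, *Hamp* and *Pomc*, among them peptide hormone genes of the gut, pituitary, thyroid and liver. Of these, *Cck*, *Pla2g1b*, *Pomc* and *Rarres1* had only 2, 3, 4 and 8 UMIs over all members and passed the filter on low values through Aire-high cells. *Gm29461*, *Crhbp* and *Lsp1* also passed it only through Aire-high cells. Their mean levels were 0.170, 0.169 and 0.171 in members, below the limit of 0.2, against 2.68, 2.00 and 1.59 in Aire-high cells. *Cck* and *Pomc* lost their calls with equal cell numbers (-1.48 and -1.69).

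Genes of the Aire stage were lower in 6 of 10 tested (median -1.21), and 4 of these, *Srgn*, *S100a14*, *Ubd* and *Calcb*, are described with the second comparison. Chemokine genes of the medulla were lower in 6 of 10 tested (median -1.56), and 4 of these calls held without each library in turn. *Ccl19*, whose product binds the same receptor as Ccl21, ranged from 1.37 to 9.25 in members and from 7.61 to 13.6 in Aire-high cells (-1.60). *Ccl17* was detected at up to 0.182 in members against 0.313 to 2.17 (-2.80), and passed the filter on low values only through Aire-high cells. MHC class II and costimulation genes were lower in 3 of 13, with a median of -0.86. The calls of *Cd80* and *H2-Oa* were lost under several alternatives, that of *Cd80* also without the isotype control at week 10 (-1.02, limma adjusted p = 0.072), the Aire trace library (adjusted p = 0.056) or the anti-RANKL library of week 2 (0.067) or week 10 (0.058). *Cd40*, the costimulatory receptor through which T cells signal to mTECs, stood at 0.643 to 1.27 against 1.80 to 2.64 (-1.35). The class II genes *H2-Aa* (-0.84) and *Cd74* (-0.65) had adjusted p-values of 0.00016 and 0.00018 (limma) but differences smaller than 1. In the 3 libraries with at least 20 cells of each class that of *H2-Aa* was -1.05. No member level of either reached the lowest Aire-high level.

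Of 20 genes of the RANK and NF-kB pathway, 3 were lower and 0 higher (median -0.55). *Tnfrsf11b*, the decoy receptor of RANKL, ranged from 0.0555 to 0.565 in members and from 1.09 to 1.79 in Aire-high cells (-2.30 ± 0.22, SE, limma adjusted p = 4.4e-05). *Traf1*, an adaptor induced by NF-kB, differed by -1.82. *Tnfrsf11a*, which encodes RANK itself, averaged 0.852 in members, 1.07 in Aire-high cells and 0.465 in Ccl21a-high cells, and neither difference (-0.30 and 0.75) was called.

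**Figure D2:**
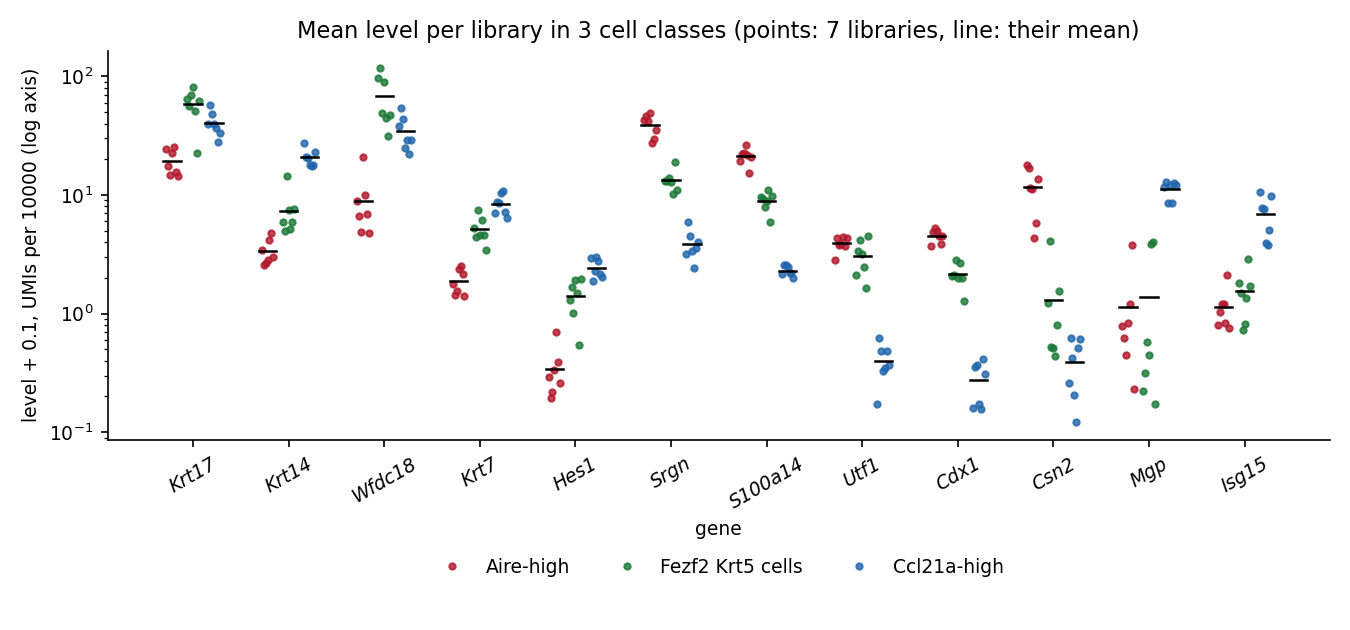
Level of 12 genes (mean UMIs per 10000 over the cells of a class in a library, plus 0.1, logarithmic vertical axis) in *Fezf2 Krt5* cells, Aire-high and Ccl21a-high cells, with 1 point per library and the mean over 7 libraries as a line. *Wfdc18* and *Krt7* of members lay above every Aire-high point, and *Utf1* and *Cdx1* above every Ccl21a-high point.

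Against Ccl21a-high cells, *Fezf2 Krt5* cells had more RNA of *Cdx1*, *Utf1* and most Aire-stage genes, and less of *Mgp*, *Gpx3*, *Acta2* and most genes of the lists of interferon-stimulated genes and of basal keratins and the Ccl21a branch. Of 5764 genes tested, 246 (4.27%) were higher in members and 299 (5.19%) lower, that is 45.1% higher among the called genes, and 270 and 215 (55.7% higher) with equal cell numbers. The median difference was -0.06.

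*Cdx1* ranged from 1.18 to 2.74 with a median of 1.98 in members and from 0.0566 to 0.315 in Ccl21a-high cells, with no overlap. Among called genes with 1 sign in every library this was the largest positive difference, 3.02 ± 0.24 (SE, limma adjusted p = 2.1e-06). *Utf1*, which encodes a chromatin protein of pluripotent cells, ranged from 1.53 to 4.37 with a median of 3.11 in members and from 0.0733 to 0.525 in Ccl21a-high cells (2.94 ± 0.22, SE, limma adjusted p = 1.2e-06). Aire-high levels of *Utf1*, 2.71 to 4.31, overlapped those of members, and the difference of -0.42 had an adjusted p of 0.094 (limma). Other leading genes with higher levels were *Reg3g*, *Defb6*, *Cxcl2*, *Calcb*, *Wfdc17*, *Bcl2a1b*, *Adam8*, *Skint9* and *Asprv1*. *Reg3g* and *Defb6*, which encode antimicrobial peptides, lost their calls in the 3 libraries with at least 20 cells of each class (2.49 and 1.48).

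Aire-stage genes were higher in 8 of 9 tested, with a median of 1.82, and all 8 calls held without each library in turn. *Srgn*, the proteoglycan serglycin, ranged from 10.2 to 19.1 in members, from 2.34 to 5.78 in Ccl21a-high cells (1.82 ± 0.14, SE, limma adjusted p = 2.1e-06) and from 27.6 to 48.8 in Aire-high cells (-1.54 ± 0.13, SE, limma adjusted p = 2.2e-05). The 3 ranges did not touch. *S100a14*, an S100 protein of epithelia, lay in the same order, at 5.83 to 11.0 in members, 1.88 to 2.45 in Ccl21a-high cells (1.94) and 15.1 to 26.5 in Aire-high cells (-1.26). *Ubd*, the ubiquitin-like FAT10, differed by 1.74 from Ccl21a-high cells (0.85 and not called in the 3 libraries with at least 20 cells of each class) and by -1.17 from Aire-high cells, and *Calcb*, a calcitonin gene-related peptide, by 2.64 and -2.22. *Fabp5*, a fatty acid binding protein, ranged from 10.8 to 64.3 in members and from 5.60 to 19.7 in Ccl21a-high cells (1.77).

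Of the 15 tested genes of basal keratins and the Ccl21a branch, 11 were lower and 0 higher (median -1.57), and 10 of these calls held without each library in turn. *Krt14* ranged from 4.91 to 14.4 in members and from 17.5 to 27.4 in Ccl21a-high cells (-1.57 ± 0.17, SE, limma adjusted p = 2.1e-05). *Mgp*, an inhibitor of calcification in the matrix, was lower by the largest margin, at 0.0743 to 3.88 with a median of 0.347 in members against 8.51 to 12.7 (-4.09 ± 0.49, SE, limma adjusted p = 5.1e-05). The week 4 and week 6 members, at 3.79 and 3.88, stood apart from the other 5 libraries, which reached 0.480. *Apoe* (-2.77), *Lifr* (-2.19), the receptor of leukemia inhibitory factor, and *Id3* (-2.13) were lower as well. *Krt17* (0.47) was not called.

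The 12 leading genes on the lower side (*Mgp*, *Gpx3*, *Ccl11*, *Cxcl14*, *Acta2*, *Tagln*, *Fst*, *Cyr61*, *Sult5a1*, *Ifit3*, *Ch25h* and *Sparc*) included 4 that were near 0 in members and passed the filter on low values through Ccl21a-high cells. These had 3 UMIs (*Fst*), 4 UMIs (*Sult5a1* and *Ch25h*) and 8 UMIs (*Cxcl14*) over all members. *Acta2* and *Tagln* encode contractile proteins of smooth muscle. *Acta2* ranged from 0.118 to 1.19 in members and from 3.80 to 10.5 in Ccl21a-high cells (-3.56 ± 0.28, SE, limma adjusted p = 1.8e-06). *Cxcl14*, a chemokine of epithelia, had no UMI in the members of most libraries and reached 0.149, against 0.877 to 2.41.

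Interferon-stimulated genes were lower in 7 of 9 tested (median -1.59). *Isg15*, a ubiquitin-like modifier, ranged from 0.626 to 2.79 in members and from 3.66 to 10.6 in Ccl21a-high cells (-2.20 ± 0.23, SE, limma adjusted p = 1.9e-05), with no overlap. *Ifi27l2a* lay between the classes, with an overlap on the Aire-high side, at 11.8 to 25.5 in members, 36.6 to 70.9 in Ccl21a-high cells (-1.61) and 3.31 to 15.0 in Aire-high cells (1.68). Among transcription factors, 3 of 18 were lower and 2 higher. *Id1* was at 0.0627 to 2.76 against 2.31 to 4.52 (-2.64), and *Trp63*, the p63 gene of basal epithelia, at 0.269 to 1.27 against 1.31 to 2.16 (-1.36), a call lost at a pseudocount of 0.5. Of 12 adhesion genes 3 were lower, and the calls of *Lama3* and *Lamb3*, which encode laminin chains, held without each library in turn. At a pseudocount of 0.5 both were lost (-0.63 and -0.72), and with equal cell numbers that of *Lamb3* (-1.01, limma adjusted p = 0.096). MHC class II and costimulation genes were higher in 5 of 13 (median 0.53), with 4 kept without each library in turn but 0 of the 5 at a pseudocount of 0.5, whereas *H2-Aa* (0.36) and *Cd74* (0.38) were not called. The Notch list gave 1 call among 8 (*Mfng*, higher), and *Hes1* was lower than in Ccl21a-high cells by 0.87 on the log2 scale, which was not called. It passed 1 with summed UMIs (-1.09), with thinned cells (-1.14), without the cTEC-marker-rich members described below (-1.05) and without the week 10 anti-RANKL library (-1.01).

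**Figure D3:**
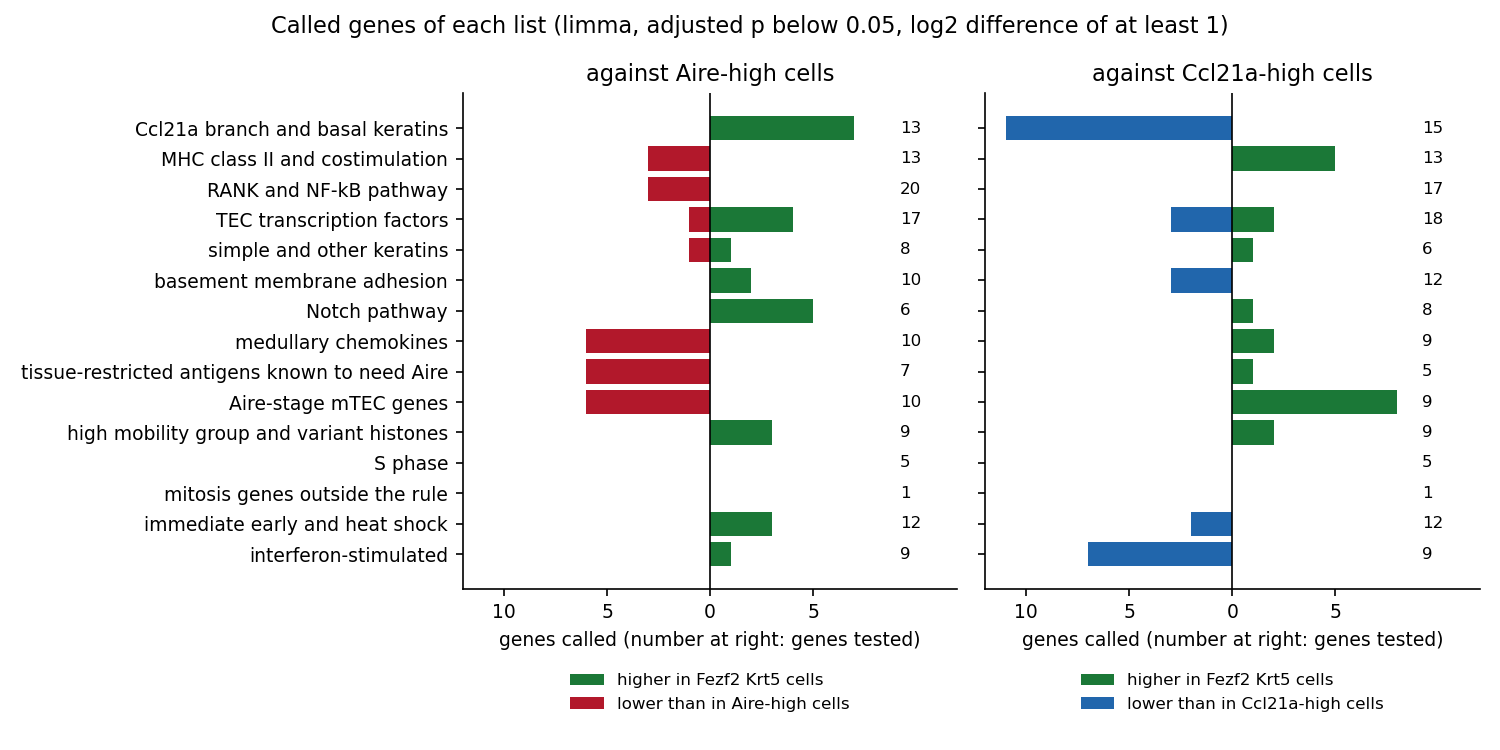
Number of genes of each list called higher or lower in *Fezf2 Krt5* cells than in Aire-high cells and than in Ccl21a-high cells (bars, horizontal axis in genes; limma, adjusted p below 0.05 and a log2 difference of at least 1), with the number of genes tested at the right. Basal keratins and Ccl21a-branch genes gave 7 higher calls in the first comparison and 11 lower calls in the second, and Aire-stage genes 6 lower and 8 higher calls.

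The place of members between both classes was described over genes called between Aire-high and Ccl21a-high cells themselves, with the Ccl21a-high level as 0 and the Aire-high level as 1 on the log2 scale. Of 672 genes higher in Aire-high cells, the member mean lay between the classes for 579 (86.2%), beyond Aire-high for 32 and beyond Ccl21a-high for 61. The median place was 0.43 (quartiles 0.20 and 0.62). By library it ran from 0.19 in the isotype control at week 10 to 0.56 at week 4 after anti-RANKL. Of 575 genes higher in Ccl21a-high cells, 496 (86.3%) lay between, with a median place of 0.59 (quartiles 0.39 and 0.81) and library medians of 0.48 to 0.66. A mean over cells of unlike kinds also lies between, so these places do not say where single cells lie.

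Some genes lay outside both classes. These were chosen after their values were seen, as the genes with the largest smaller difference. *Matn1* was higher than in Ccl21a-high cells too, which ranged from 0.153 to 0.586 (1.83 ± 0.23, SE, limma adjusted p = 6.8e-05). *Spink5*, *Gsta4*, *Rptn*, *Calml3*, *Lypd3* and *Ly6d* were also above both classes on average, although *Spink5* and *Rptn* were not called against Aire-high cells (limma adjusted p = 0.078 and 0.077). *Ly6d* ranged from 1.38 to 28.3 with a median of 9.24 in members, from 0.863 to 4.87 in Aire-high cells (1.55) and from 0.475 to 3.94 in Ccl21a-high cells (2.19). *Gsta4* ranged from 0 to 7.80 over the member libraries. Without the 16 members richest in keratinocyte-like markers, described below, *Ly6d* differed from Aire-high cells by 0.46 and *Gsta4* by 0.55, neither called, and *Calml3* from Ccl21a-high cells by -0.050. Below both classes, *Gpx3*, a secreted glutathione peroxidase, ranged from 0.107 to 1.65 in members, 1.22 to 2.37 in Aire-high cells (-1.65) and 7.37 to 13.2 in Ccl21a-high cells (-4.07). With no filter on low values its adjusted p against Aire-high cells was 0.052. *Tinagl1*, a basement membrane protein, had 8 UMIs over all members and passed the filter on low values only through the comparison classes. It stayed at or under 0.105 in members, against 0.177 to 0.550 (-1.85) and 0.421 to 0.725 (-2.25). At a pseudocount of 0.5 these differences were -0.74 and -0.96.

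The label of these cells as 1 kind of intermediate mTEC was checked against markers of other cells in the sort, and members were not uniform. Epithelial genes were present throughout, with *Epcam* at 4.08 to 9.66 and *Krt8* at 13.7 to 28.4 in members. Markers of T cells summed to 0.0399 to 1.05 per library in members (9 of 10 detected, *Cd3g* at 0) against 3.09 to 25.1 in Ptprc-positive cells. Fibroblast markers reached 0.170 (4 of 6 detected, *Pdgfra* and *Col3a1* at 0), endothelial markers 0.102 (1 of 4 detected, *Cdh5*, *Kdr* and *Emcn* at 0) and tuft cell markers 1.93 (10 of 11 detected, *Il25* at 0). Markers of 2 other epithelial types reached higher sums. Keratinocyte-like markers summed to 0.594 to 39.1 in members, with a median of 12.7 (9 of 10 detected, *Krt80* at 0), against 1.16 to 6.72 in Aire-high and 1.38 to 4.78 in Ccl21a-high cells. In the gene comparisons 0 of 7 of them were called against Aire-high cells (limma) and 2 of 7 were higher than in Ccl21a-high cells, and both calls were lost without a library. Markers of cortical thymic epithelial cells (cTECs) summed to 7.94 to 99.1 in members (10 of 10 detected), 20.9 to 61.7 in Aire-high and 35.9 to 59.6 in Ccl21a-high cells, with medians of 35.7, 27.3 and 44.4. Of 7 tested, 1 was higher and 1 lower than in Aire-high cells, and 0 higher and 2 lower than in Ccl21a-high cells (limma). Both calls against Aire-high cells (*Ctsl* higher, *Ccl25* lower) were lost without a library, and the 2 against Ccl21a-high cells held.

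A few cells held most of these markers. Limits of 20 and 50 UMIs per 10000 were set after the sums were seen, and the groups they form are described without a test. Keratinocyte-like markers summed to more than 20 in 16 of 127 members (12.6%), which held 85.7% of the summed level, and in 2.35% of Aire-high and 2.19% of Ccl21a-high cells. Of these 16, 7 came from week 2 after anti-RANKL, 5 from the isotype control at week 2 and 2 each from the Aire trace and week 10 anti-RANKL libraries. In these 16 cells *Spink5*, an inhibitor of epidermal proteases and a marker of the sum, averaged 23.6 against 0.285 in the other 111, and *Ly6d* 61.5 against 4.12. *Calml3*, *Rptn* and *Gsta4* averaged 11.1, 11.1 and 10.8 against 0.264, 0.373 and 0.903. *Krt14* averaged 1.17 against 8.35. *Cd74* averaged 83.7 against 171, *Krt5* 21.2 against 13.2, and *Aire* UMIs were found in 4 of 16 and 62 of 111 cells. Median depth was 10492 and 9867 UMIs. Without these 16 members the comparison with Aire-high cells gave 132 higher and 405 lower genes, and that with Ccl21a-high cells 201 and 332.

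cTEC markers summed to more than 50 in 21 members (16.5%), which held 73.0% of the summed level, and in 228 of 1402 Aire-high and 809 of 3241 Ccl21a-high cells. In the week 4 library 12 of 17 members (70.6%) were above this limit, against 4 of 19 at week 2, 1 of 14 at week 6 and 2 of 22 at week 10 after anti-RANKL. In the isotype controls 0 and 2 members were above it. Of Aire-high cells 13.1% and 16.4% were above it in the controls, 35.7% at week 2 and 7 of 20 at week 4, and of Ccl21a-high cells 16.0% and 19.9% in the controls, 32.5% at week 2 and 29.9% at week 4. When *Tbata* was left out of the sum, 12 members were above 50, among them 6 of the 17 at week 4, 2 of 19 at week 2 and 0 and 2 in the controls. At week 4, 5 of 20 Aire-high and 23.2% of Ccl21a-high cells were then above it. The markers named next belong to the sum that formed the 21 cells, so their levels only describe that choice. *Tbata*, a gene of thymic epithelium, averaged 77.2 in the 21 cells and 6.11 in the other 106, the chemokine gene *Ccl25* 35.6 and 0.762, and the cathepsin gene *Ctsl* 28.9 and 3.25. *Prss16* and *Psmb11*, which encode the thymus-specific serine protease and the thymoproteasome subunit of cTECs, averaged 7.75 and 4.72 against 0.330 and 0.119. Median depth was 7443 and 11379 UMIs. None of the members was above both limits, and 90 were below both. Without the 21 cells, 6 libraries kept enough members, and the counts were 164 higher and 426 lower against Aire-high and 238 and 328 against Ccl21a-high cells. Given these 2 subsets, the cells are called here by the genes that chose them.

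**Figure D4:**
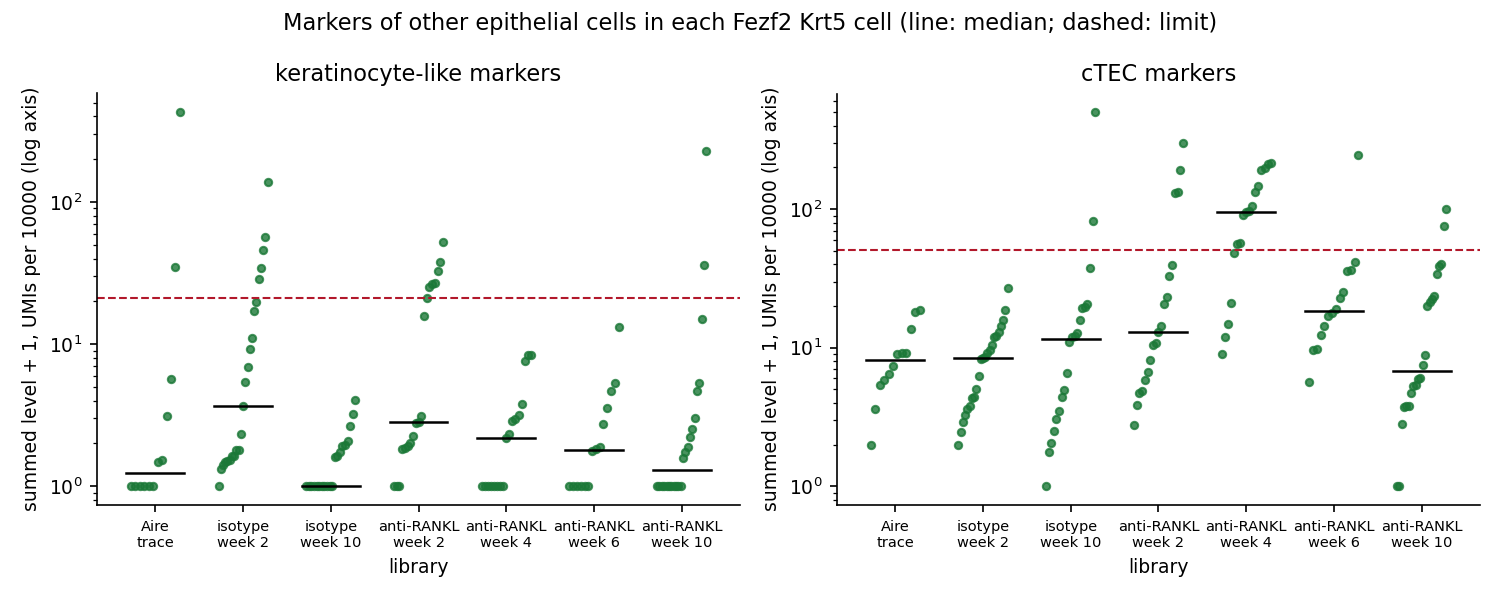
Summed level of keratinocyte-like markers (left) and cTEC markers (right) in each *Fezf2 Krt5* cell (UMIs per 10000 plus 1, logarithmic vertical axis) by library (horizontal axis), with the median as a line and the limits of 20 and 50 dashed. The 16 cells above the left limit come from 4 libraries, and 12 of the 21 cells above the right limit are week 4 members.

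After anti-RANKL, members at weeks 2 and 4 were set against those of both isotype controls. Each week was 1 library, and no test was made. Past a log2 difference of 1 in the same direction in all 4 pairs of libraries lay 21 of 2765 genes on the higher side (0.759%) and 8 on the lower side (0.289%). *Tbata* stood at 4.44 and 9.60 in the controls, at 28.9 and 57.3 at weeks 2 and 4, and at 11.1 and 11.5 at weeks 6 and 10. *Tbata* is among the markers that define the cTEC-marker-rich members, so its level and their number are not separate measurements. *Thap4*, a zinc finger protein gene, stood at 0.244 and 0.123 in the controls and at 1.49 and 2.13 at weeks 2 and 4 (31 and 24 UMIs), and *Stmn2*, a microtubule regulator of neurons, at 0.0287 and 0.249 against 1.09 and 2.32 (30 and 33 UMIs). *Pth*, parathyroid hormone, had 4 and 0 UMIs in the controls and 58 and 7 at weeks 2 and 4. Its level was highest at week 6, at 10.3. *Znrf2* completed the 5 leading genes. On the lower side, *Rgs5*, a regulator of G protein signaling, stood at 5.48 and 5.79 in the controls, 1.67 and 0.926 at weeks 2 and 4, and 4.36 and 4.30 at weeks 6 and 10. The next 4 on that side were *Dnajc2*, *Hist1h1c*, *Cxcl1* and *Nop56*. The week 2 control and the week 2 anti-RANKL library were matched in age and the other pairs were not, with member medians of 19784 and 9697 UMIs in the controls and 13842 and 7248 at weeks 2 and 4.

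The Aire trace library showed ZsGreen RNA, listed as GFP, in 8 of 12 members (66.7%, exact 95% interval 34.9 to 90.1%). Between 0 and 21 UMIs were found per member, with a median of 1. Aire-high cells held it in 76 of 82 (92.7%) and Ccl21a-high cells in 299 of 826 (36.2%). The share in Ptprc-positive cells of this library was 44 of 69 (63.8%), at a median depth of 12350 UMIs against 14066.5 in members, close to the member share. These cells are not free of epithelial RNA, since over all libraries their tuft cell markers summed to a median of 21.9 against 0.952 in members. Their share is therefore not a clean background, and the member share is given only as a value. Which part of it is expression of the members was not tested. Thinned to 2000 UMIs per cell, ZsGreen was left in 5 of 12 members (41.7%, 15.2 to 72.3%), 61.0% of Aire-high, 10.9% of Ccl21a-high and 29.0% of Ptprc-positive cells. The thinned member interval contained both the Aire-high value and that of Ptprc-positive cells, and lay above the Ccl21a-high value. With at least 2 UMIs required, 41.7% of members (15.2 to 72.3%), 89.0% of Aire-high (80.2 to 94.9%), 12.0% of Ccl21a-high (9.85 to 14.4%) and 44.9% of Ptprc-positive cells held ZsGreen. The member interval then lay below that of Aire-high cells, above that of Ccl21a-high cells and around the value of Ptprc-positive cells. ZsGreen and *Aire* UMIs occurred together in 5 members, ZsGreen alone in 3, *Aire* alone in 2 and neither in 2.

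**Figure D5:**
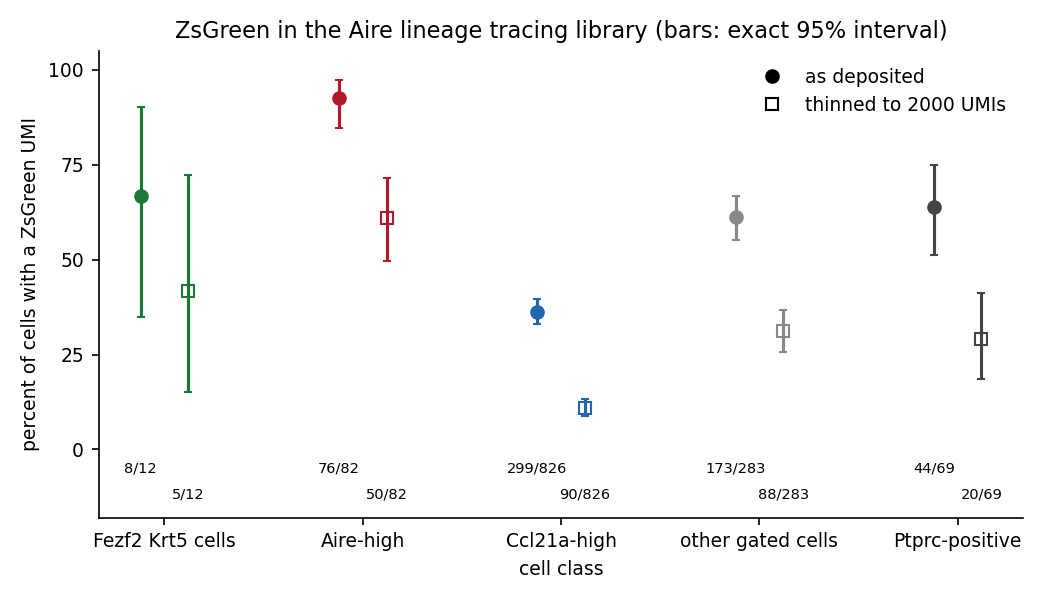
Share of cells with a ZsGreen UMI (percent, vertical axis) in each class of the Aire trace library, as deposited and after thinning each cell to 2000 UMIs, with exact 95% intervals as bars. The member interval as deposited, 34.9 to 90.1%, contains the 63.8% of Ptprc-positive cells.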

How the data were processed

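The deposited values are natural log values, ln(1 + UMIs scaled to 10000 per cell), 1 table per library; the authors aligned and counted the reads with Cell Ranger 2.2.0 and normalized the cells with Seurat 2.3.4. The methods name a scale factor of 1000, but every cell summed to 10000. Whole UMIs were recovered in all cells (tolerance 0.001). The cell gate and gene lists were chosen with earlier results of these data known, so no list is independent evidence.

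Mean UMIs per 10000 of each class in each library, with at least 10 cells, were compared by limma 3.58.1 (R 4.3.3) on log2(level + 0.1), with library as a block, for genes averaging at least 0.2. Libraries, not cells, are the replicates, and they differ in age and treatment. Other tools were Python 3.11.15, NumPy 2.4.6, pandas 2.3.3, SciPy 1.17.1 and matplotlib 3.10.9. The scripts were tested on simulated data, which held no variation between the cells of a class. The text names genes of the selection rule and of the lists and, per comparison and direction, the 12 called genes with the largest difference of 1 sign in every library (5 after anti-RANKL, averaging at least 0.5). No columns of other samples were left out (0). Lists of 252 genes found of 253 were used. Alternatives changed the pseudocount, filter, scaling, depth, cell limits and libraries; 4 were added after the data were seen. Some results are not reported here.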

Additional observations from a re-analysis of the deposited data

How the results depend on the processing

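The genes named or called in a list were 86 against Aire-high and 87 against Ccl21a-high cells, and over the alternatives they gave 1536 and 1548 values. Of these 1333 and 1414 kept direction and call, 196 and 127 kept direction without the call, and 7 and 6 gained one. The only reversal was *Calml3* against Ccl21a-high cells, at -0.050 without the members rich in keratinocyte-like markers. Leaving out each library in turn gave 131 to 181 higher and 316 to 407 lower genes against Aire-high, and 201 to 268 and 275 to 327 against Ccl21a-high cells. A pseudocount of 0.5 left 51 higher and 114 lower genes against Aire-high and 84 and 84 against Ccl21a-high cells. Thinning cells to 4000 UMIs left 80 higher genes, and equal cell numbers 221 lower genes, against Aire-high cells. At least 20 cells per class, which leaves 3 libraries, gave 157 higher genes against Ccl21a-high cells. Fewer libraries entered that fit, and for the other changes the cause was not tested. With *Fezf2* and *Krt5* above 2, members were 0.152, 0.797, 0.401, 0.591, 0.414, 0.278 and 0.427% of the Aire trace, both isotype (weeks 2 and 10) and the anti-RANKL libraries (weeks 2, 4, 6 and 10), and ZsGreen was found in 100% of 2 cells. These 36 members were too few per library for the gene comparisons, which were not run at that limit. At least 2 UMIs or thinning to 2000 gave ZsGreen in 41.7% of members. The genes after anti-RANKL were 6 higher and 1 lower at a pseudocount of 0.5, and 59 and 21 of 5715 with a mean of at least 0.2. With 12 to 23 members per library, low genes and shares differing less than their intervals are beyond this depth.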
